A study of Homo sapiens with 6 samples.

Results

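DKK4, DKK1, APCDD1, NOTUM and WIF1 encode proteins that hold back Wnt signalling outside the cell or at its surface. They were picked by gene symbol, 5 of 14884 genes with a symbol, in a table of array values from spheroids of the colorectal cancer lines SW480 and SW620. The group was put together with the difference between the lines already known, so its values are a description and were given no test. SW480 comes from a primary colorectal tumour, and SW620 was derived from metastatic tissue of a lymph node. Spheres of both lines grew without serum in a medium supplemented with growth factors, conditions meant to enrich tumour-initiating cells (TIC), and total RNA was run on 3 arrays per line. The study set out to find how the TIC compartment differs between the lines. The submitters call the 3 arrays of a line technical replicates, so every spread and p-value here measures differences between such arrays and not between separate cultures. No adherent culture, sorted fraction or further agent was among the groups, and all of them share the sphere medium.

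Wnt proteins carry a lipid, bind a Frizzled receptor together with LRP5 or LRP6, and thereby stop the destruction complex of APC, AXIN and GSK3 from degrading beta-catenin, which then works with TCF/LEF factors in the nucleus. The inhibitors act upstream of that complex. DKK1 and DKK4, secreted Dickkopf proteins, bind LRP5 and LRP6, with the Kremen proteins as further receptors. NOTUM is a secreted enzyme that cuts the lipid off Wnt, WIF1 is a secreted protein that binds Wnt itself, and APCDD1 is a membrane glycoprotein that binds Wnt and LRP. Several of these genes are switched on by beta-catenin and so form feedback loops. In colorectal cancer, including these lines, truncated APC commonly keeps the pathway active below the point where these proteins act.

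The stretch of 250 bases before the transcription start is shown for the members that a RefSeq promoter table (GRCh38.p14) held, 3 of the 5, because beta-catenin acts on promoters and enhancers through TCF/LEF factors. They stand for a gene that was high in SW480 (APCDD1, chr18:10454385-10454634, plus strand), a gene at similar levels in both lines (DKK1, chr10:52314031-52314280, plus strand) and a gene near the lower end of the array's values in both (WIF1, chr12:65121306-65121555, minus strand). DKK4 and NOTUM were not matched. Capitals mark a match to CTTTGAA or CTTTGAT, the 2 forms of the TCF/LEF core that were searched, on both strands; matches that overlapped were each counted.
APCDD1: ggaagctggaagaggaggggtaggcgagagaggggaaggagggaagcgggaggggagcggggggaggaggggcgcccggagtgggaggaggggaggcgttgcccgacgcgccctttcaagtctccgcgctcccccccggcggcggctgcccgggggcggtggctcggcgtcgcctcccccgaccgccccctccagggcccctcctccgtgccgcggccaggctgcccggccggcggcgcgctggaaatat
DKK1: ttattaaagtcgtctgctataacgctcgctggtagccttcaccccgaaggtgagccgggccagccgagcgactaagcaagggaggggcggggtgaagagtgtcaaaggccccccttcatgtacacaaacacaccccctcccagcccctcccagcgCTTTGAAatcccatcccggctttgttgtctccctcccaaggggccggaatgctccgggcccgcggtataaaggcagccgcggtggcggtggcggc
WIF1: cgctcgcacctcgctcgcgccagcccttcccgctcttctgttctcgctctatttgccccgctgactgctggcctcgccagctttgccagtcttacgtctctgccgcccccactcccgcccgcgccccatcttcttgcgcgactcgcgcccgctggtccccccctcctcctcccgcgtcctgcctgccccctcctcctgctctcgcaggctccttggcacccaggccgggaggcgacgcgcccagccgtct
The DKK1 window held 1 match, CTTTGAA, from 95 to 89 bases before the start, and the APCDD1 and WIF1 windows held 0. Of 22178 such windows of protein-coding genes, 4.90% held at least 1 match. G and C made up 77.2% of the APCDD1 window, 71.6% of the WIF1 window and 62.8% of the DKK1 window, against a median of 62.0% over protein-coding windows. The APCDD1 window also held 29 CpG dinucleotides, the WIF1 window 27 and the DKK1 window 18, with a median of 16. A match in a window is a description of its letters, and the arrays measured no binding.

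The values are log2 expression levels, so a difference of 1 is a doubling. The median feature of the table lay at 4.07 and the 25th percentile feature at 3.53, and a level near these is close to the lower end of what the arrays reported. Each of the 5 genes had a single feature. Across features, which are not independent replicates, 2 arrays correlated at 0.988 to 0.992 within a line and at 0.963 to 0.965 between lines. The SD between replicate arrays had a median over genes of 0.0955 for SW480 and 0.105 for SW620.

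DKK4 was the member that differed most. Its level was 13.13, 13.12 and 13.10 on the 3 SW480 arrays, and 5.69, 5.92 and 5.60 on the 3 SW620 arrays. All SW480 arrays were high and all SW620 arrays low, and the nearest arrays of the lines lay 7.18 apart. In SW480 DKK4 was brighter than at least 99.9% of the features on every array, and in SW620 it was brighter than 75.1% to 78.0% of them. That is still above the median feature, as was the mean over the 6 arrays of 9475 of the 14884 genes. The difference of means was -7.38 (SW620 minus SW480, standard error of the difference 0.0978, n = 3 arrays per line), a 167-fold lower signal in SW620 and rank 1 by size among the 14884 genes. The SD was 0.0175 in SW480 and 0.17 in SW620. The SW480 levels lay close to the highest value on each SW480 array, 13.84 to 13.92, and whether the feature was near saturation there was not tested, so the fold and the narrow spread in SW480 are those of the deposited values. Of all genes, 2.51% had a smaller SD than DKK4 in SW480 and 79.8% had a smaller SD in SW620.

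APCDD1 followed in the same direction. It stood at 9.55, 9.53 and 9.41 in SW480 and at 6.22, 6.14 and 6.45 in SW620. The groups did not overlap, and 2.96 separated their nearest arrays. The means were 9.50 ± 0.0772 (SD, n = 3) and 6.27 ± 0.16 (SD, n = 3), a difference of -3.22 (standard error 0.10) or a 9.34-fold lower signal in SW620. By size of difference it ranked 47 of 14884. Like DKK4, APCDD1 kept a level above the median feature on every SW620 array.

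NOTUM, the Wnt-delipidating enzyme, ran the other way. It measured 7.22, 7.48 and 7.28 on the SW480 arrays and 7.85, 7.85 and 8.05 on the SW620 arrays. Every SW620 array was above every SW480 array, with 0.37 between the nearest ones. The mean went from 7.33 ± 0.13 to 7.92 ± 0.11 (SD, n = 3 each), a difference of 0.59 (standard error 0.10) or 1.51-fold. Over all 6 arrays NOTUM was brighter than 88.0% to 92.8% of the features.

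DKK1, the best-studied relative of DKK4, did not share its pattern. The SW480 arrays gave 5.10, 4.68 and 4.69 and the SW620 arrays 4.98, 5.0 and 5.11. The lines overlapped, because SW480 replicate 1 lay as high as the SW620 arrays while the other SW480 arrays lay below them. The difference was 0.20 (standard error 0.15), or 1.15-fold, and it was 0.34 without SW480 replicate 1 and 0.13 without SW480 replicate 2. DKK1 had a wide spread in SW480 (SD 0.24, larger than that of 95.8% of genes) and a narrow spread in SW620 (SD 0.0692). Its difference was smaller than the range of the SW480 arrays, 0.42.

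WIF1, the Wnt-binding protein, was dim throughout. Its levels were 3.53, 3.66 and 3.47 in SW480 and 3.64, 3.57 and 3.58 in SW620. All 6 arrays lay below the median feature and close to the 25th percentile feature, and the lines overlapped. The difference was 0.0445 (standard error 0.0606), and it ran from 0.00221 without SW480 replicate 3 to 0.0978 without SW480 replicate 2. At such a level the arrays cannot tell a low transcript level from none.

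**Figure D1:**
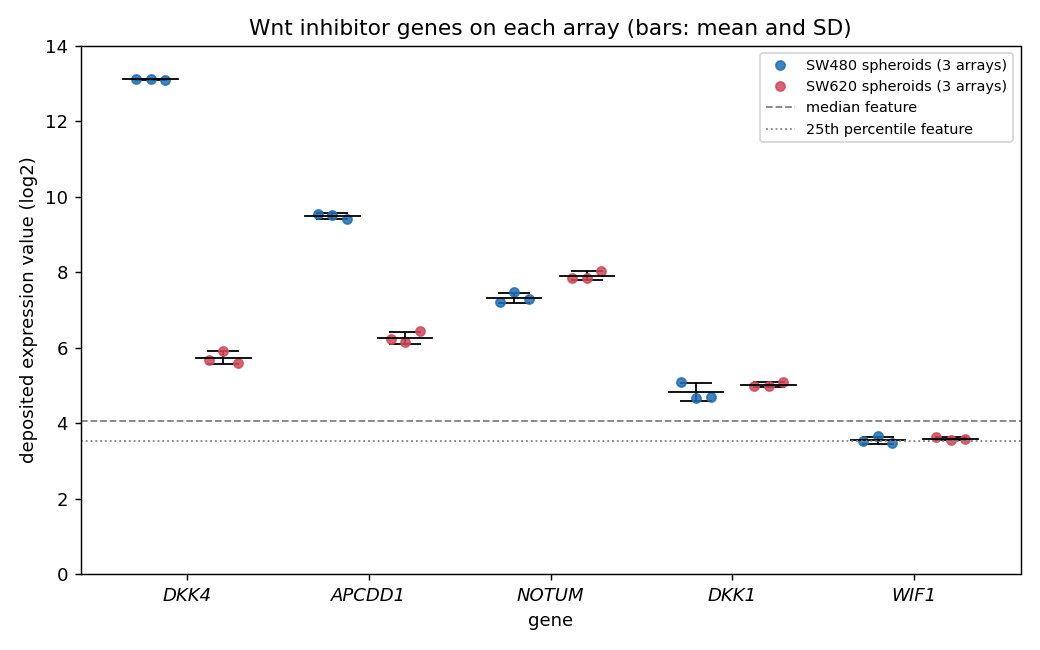
Deposited log2 level of the 5 inhibitor genes on each array, with SW480 spheroids in blue and SW620 spheroids in red, 3 arrays each. Bars give the mean and SD, and the dashed and dotted lines mark the median and 25th percentile feature; DKK4 lies at a mean of 13.12 in SW480 and 5.74 in SW620 and APCDD1 at 9.50 and 6.27, NOTUM lies higher in SW620, DKK1 overlaps and WIF1 lies on the dotted line.

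The arrays of the lines did not overlap for 3 of the 5 genes, 2 lower and 1 higher in SW620. Over all genes the share without overlap was 45.7%, with 22.0% higher and 23.7% lower in SW620. At least a 2-fold difference was seen for 2 of the 5, against 6.07% of all genes. The 5 genes were proposed with this contrast in view, so these counts describe the choice of genes. The order by size was DKK4, APCDD1, NOTUM, DKK1 and WIF1, and the differences of DKK1 and WIF1 both lay within the range of their own SW480 arrays.

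**Figure D2:**
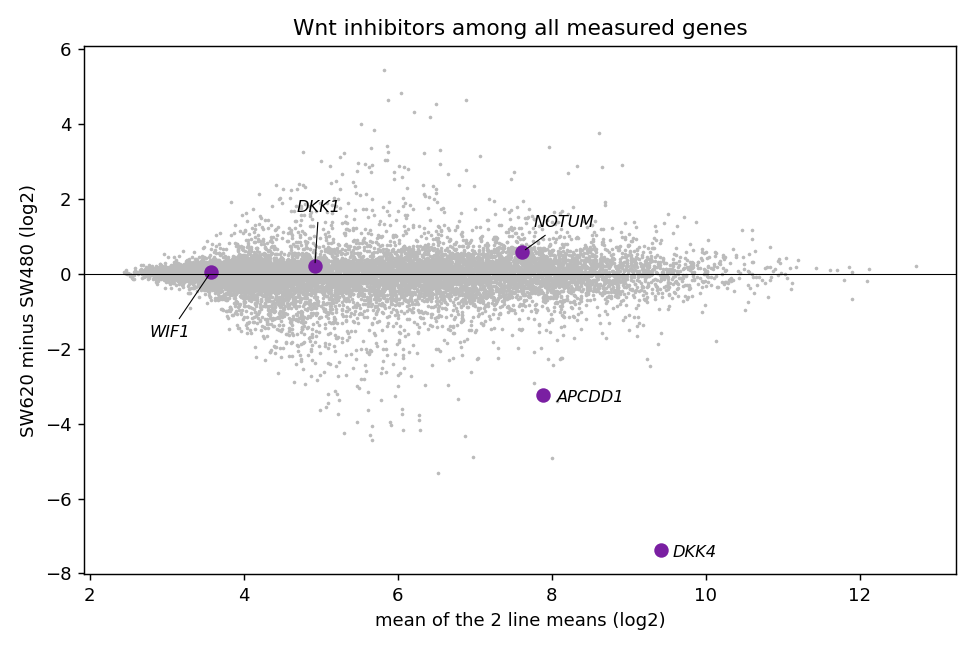
Difference between the lines (SW620 minus SW480, log2) against the mean of the line means (log2) for all 14884 genes in grey, with the 5 inhibitors in purple. DKK4 (-7.38) lies apart from the cloud at the bottom, APCDD1 (-3.22) at its lower edge, and NOTUM (0.59), DKK1 (0.20) and WIF1 (0.0445) inside it.

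The genes closest to DKK4 in profile were looked for by the root mean square distance over the 6 arrays between profiles centred on their own mean. This distance grows with the gap in difference, and DKK4 ranked 1 by size, so its distances mostly restate that rank. The closest were NELL2, a secreted protein first described in neural tissue, at a distance of 1.03 (difference -5.32), the basal keratin KRT5 at 1.26 (-4.89) and PASD1 at 1.48 (-4.42). Their correlations with DKK4 over the 6 arrays were 0.9998, 0.998 and 0.999. With 2 sets of 3 close arrays, a large gap between the lines in the same direction by itself gives a correlation near 1. The neighbours of APCDD1, whose difference was smaller, lay nearer. The neuronal pentraxin NPTX2 lay at 0.0592 (difference -3.26), the scaffold protein IQGAP2 at 0.0643 (-3.20) and the growth factor receptor EGFR at 0.10 (-3.36). The SW620 means of NELL2 (3.86), PASD1 (3.45), IQGAP2 (3.62) and EGFR (3.55) lay below the median feature, so their differences, and the distances made from them, are limited by the floor. These distances rest on a single contrast between 2 lines.

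Genes next to the members on the chromosomes were compared by their order in the RefSeq gene table, counting measured protein-coding genes. For the nearest gene on each side, the distance between gene starts ran from 12.9 kb (MYADML2 to NOTUM) to 1515 kb (A1CF to DKK1). NKX6-3 lay 729 kb from DKK4, and TXNDC2 and TWSG1 lay 569 and 1120 kb from APCDD1. Genes that were not measured can lie between. Beside DKK4 on chromosome 8, the transcription factor gene NKX6-3 was higher in SW620 by 0.48 (standard error 0.10, adjusted p = 0.00273 in limma) from a SW480 mean of 3.78 (below the median feature), and VDAC3, a channel of the mitochondrial outer membrane, differed by -0.13 (adjusted p = 0.318). Among the 3 measured genes on each side of DKK4 the differences ran from -0.40 to 0.48. Beside APCDD1 on chromosome 18, TXNDC2 and the mechanosensitive channel PIEZO2 differed by -0.11 and -0.0852 (adjusted p = 0.422 and 0.470 in limma), both on dim features. The next gene but one, TWSG1, which encodes a secreted BMP-binding protein and is named here after its value was seen, was lower in SW620 by 2.32-fold (-1.21, standard error 0.12, adjusted p = 2.7e-06 in limma). DKK4 ranked 1 by size of difference among all genes, so no neighbour could differ by as much.

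For NOTUM (0.59) on chromosome 17, the neighbour CENPX, a DNA repair and kinetochore protein, was higher in SW620 by 0.65 (standard error 0.0964, adjusted p = 0.000149 in limma). MYADML2 on the other side differed by -0.0230 (adjusted p = 0.895 in limma), a value whose sign turned under some alternatives. Among the 3 measured genes on each side of NOTUM the differences ran from -0.35 to 0.65. For DKK1 on chromosome 10, A1CF, a partner of the APOB mRNA editing enzyme, was 4.01-fold higher in SW620 (2.0, standard error 0.0879, adjusted p = 1.6e-09 in limma), and PCDH15 differed by -0.13 (adjusted p = 0.310). For WIF1 on chromosome 12, RASSF3 was lower by 0.33 in SW620 (adjusted p = 0.00887 in limma) and LEMD3, a protein of the inner nuclear membrane, differed by 0.21 (adjusted p = 0.0941).

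**Figure D3:**
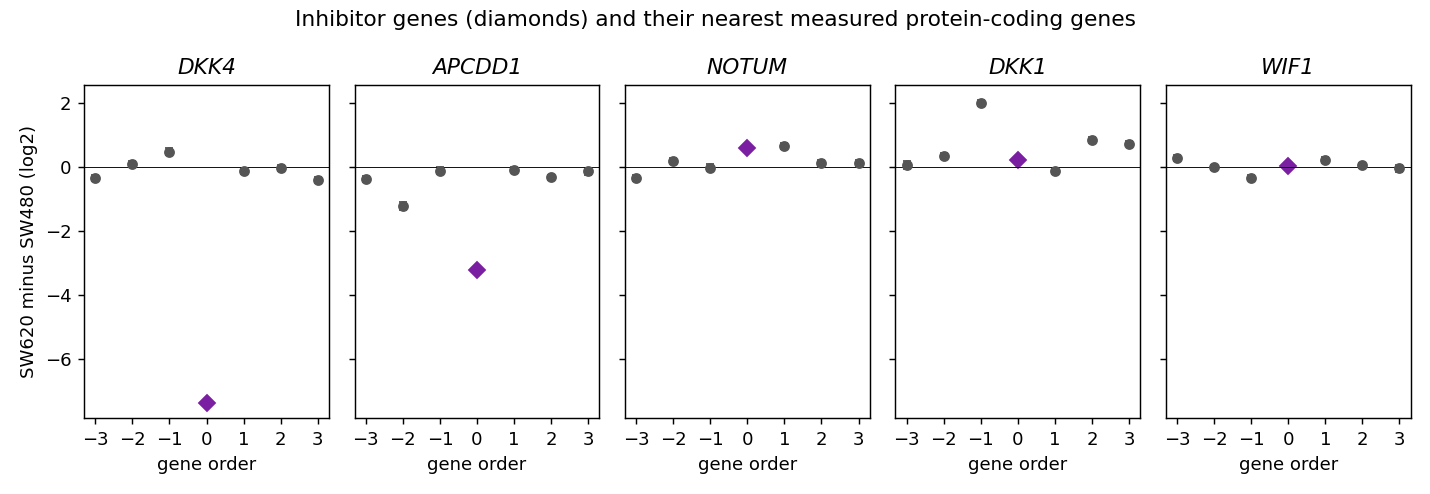
Difference between the lines (SW620 minus SW480, log2) for each inhibitor gene (purple diamond at 0) and the 3 nearest measured protein-coding genes on each side, by gene order; bars are limma standard errors. DKK4 lies at -7.38 and its neighbours between -0.40 and 0.48, and beside APCDD1 only TWSG1 differs by more than 1.

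The rest of the pathway was read from lists of its parts and tested with limma over all genes at an adjusted p below 0.05. By this test 35.6% of all 14884 genes differed, 16.0% higher and 19.5% lower in SW620, with a median difference of 0.0132. Of 123 listed pathway genes 82 were measured, and 20 were higher, 30 lower and 32 did not pass. That is a share of 61.0%, with a median difference of -0.0709. Pathway genes changed in both directions, and 14 of the 50 called genes reached 2-fold. Of the 82, 18 lay below the median feature in both lines, against 4976 of all 14884 genes. In the lists of DKK receptors, destruction complex and targets, 0 genes did so. With genes above the median feature alone, limma called 5059 of 9475 genes and 44 of 59 pathway genes. The 35.6% of all genes set beside each list below is thus not matched for level.

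The receptors that Dickkopf proteins bind were measured in full. Of the 4, LRP6, LRP5 and KREMEN1 rose in SW620 and KREMEN2 fell, with a median difference of 0.70. The share called was 100%, against 35.6% of all genes. LRP6, the main Dickkopf-binding coreceptor, stood at 8.44, 8.46 and 8.47 in SW480 and 9.42, 9.39 and 9.51 in SW620. All SW620 arrays were higher, by 1.98-fold on average (0.98, standard error 0.0809, adjusted p = 6.6e-07 in limma). LRP5, its close relative, went from 7.66, 7.64 and 7.47 to 8.63, 8.38 and 8.56, without overlap, a 1.91-fold rise (0.93, adjusted p = 5.3e-06 in limma). KREMEN1 rose 1.39-fold (0.48, adjusted p = 0.000659), and KREMEN2, named here after its value was seen, fell by 0.39 (adjusted p = 0.00674), both in limma. DKK4 was thus the lower in the line where 3 of its 4 receptor genes were the higher, while DKK1 differed by 0.20 with overlapping arrays.

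**Figure D4:**
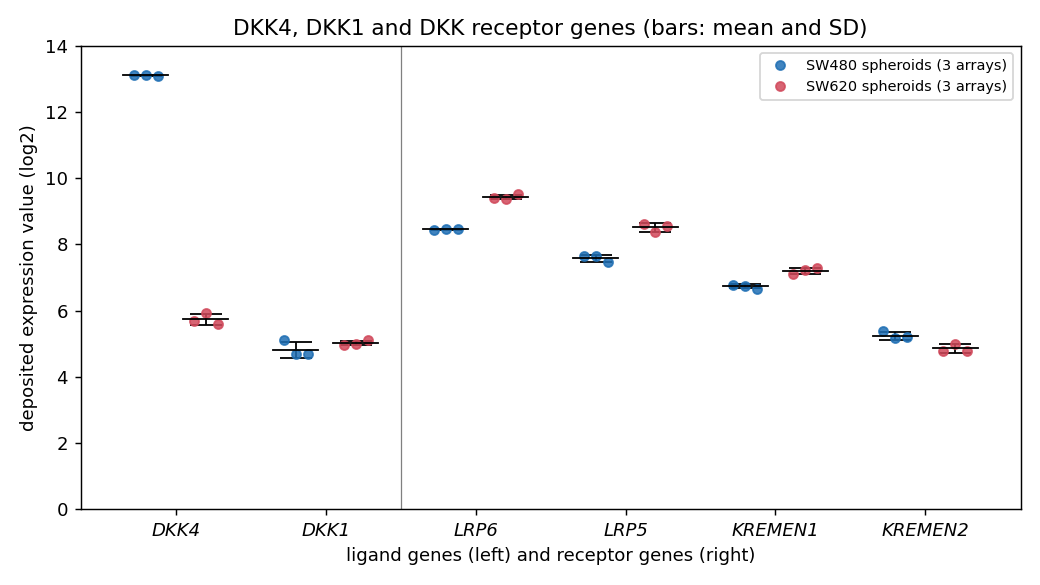
Deposited log2 level on each array for the ligand genes DKK4 and DKK1 and for the receptor genes LRP6, LRP5, KREMEN1 and KREMEN2, with SW480 spheroids in blue and SW620 spheroids in red; bars give the mean and SD of 3 arrays. LRP6 (8.46 to 9.44), LRP5 (7.59 to 8.52) and KREMEN1 (6.73 to 7.21) are higher in SW620 and KREMEN2 (5.25 to 4.86) is lower.

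Among 18 other measured inhibitors of Wnt 6 fell, 1 rose and 11 did not pass, a share of 38.9% against 35.6% of all genes, and the median difference was -0.12. Most were dim, 10 of the 18 lying below the median feature in both lines. SHISA2, which holds Frizzled receptors inside the cell, fell 2.27-fold from 4.70 ± 0.0427 to 3.52 ± 0.11 (SD, n = 3 each; adjusted p = 2.2e-07 in limma). TPBG, a membrane glycoprotein that interferes with LRP6, fell 2.02-fold from 4.90 ± 0.0503 to 3.88 ± 0.0855 (SD, n = 3 each; adjusted p = 7.1e-07 in limma). The SW620 means of both lay below the median feature, so their folds rest on a level near the floor. IGFBP4, an insulin-like growth factor binding protein that also binds LRP6, was brighter and fell 1.40-fold, from 8.25 to 7.77 (adjusted p = 0.00399 in limma). The 1 that rose, SFRP5, a secreted Frizzled-related protein named here after its value was seen, differed by 0.29 (adjusted p = 0.0229 in limma). The SFRP5 call was lost without SW480 replicate 1, SW480 replicate 3, SW620 replicate 1 or SW620 replicate 3 (adjusted p = 0.0609, 0.0925, 0.0611 and 0.0720). The relatives DKK2, DKK3 and DKKL1 were dim in both lines and differed by -0.0602, -0.14 and -0.0842 (adjusted p = 0.649, 0.245 and 0.626 in limma).

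Of the substrates on which NOTUM and WIF1 act, 1 of 19 Wnt ligand genes had a feature with its symbol in the annotation used here. The other ligands were not analysed here, and 37518 of the 53616 features had no symbol in it. The ligand measured was WNT2, at 3.52 in SW480 and 3.47 in SW620 and so dim in both (adjusted p = 0.738 in limma). Of 7 measured genes for Wnt export and for glypicans, the cell surface proteoglycans that bind Wnt, 2 fell and 0 rose, with a median difference of -0.0508. That is a share of 28.6%, below the 35.6% of all genes. GPC1 fell by 0.43 (adjusted p = 0.00936 in limma) and GPC2 by 0.38 (adjusted p = 0.0223 in limma). GPC2 no longer passed without SW480 replicate 2, SW480 replicate 3 or SW620 replicate 3 (adjusted p = 0.110, 0.0592 and 0.0711).

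Of 14 measured Frizzled and other Wnt receptors 8 fell, 3 rose and 3 did not pass (78.6% called against 35.6% of all genes, median difference -0.31). ROR1, a receptor for WNT5A, rose 3.98-fold (1.99, standard error 0.0824, adjusted p = 8.6e-10 in limma), whereas its relative ROR2 fell 2.19-fold (-1.13, adjusted p = 1.0e-05) and FZD7 fell 1.99-fold (-0.99, adjusted p = 8.4e-05), both from levels that ended below the median feature. The other receptors that rose, FZD5 by 0.98 and FZD10 by 0.86 (adjusted p = 2.2e-06 and 3.1e-05 in limma), are named after their values were seen. In the R-spondin branch, which raises Frizzled at the surface by blocking the ligases RNF43 and ZNRF3, 4 of 9 genes rose, 1 fell and 4 did not pass, with a median of 0.0664. The share called was 55.6%, against 35.6% of all genes. The R-spondin receptors LGR5 (3.16, adjusted p = 1.8e-11) and LGR6 (1.51, adjusted p = 1.7e-07) rose, and RNF43, itself a feedback gene, fell by 1.49 on the log2 scale (adjusted p = 2.1e-08), all in limma.

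Inside the cell the list of the destruction complex held 17 genes, and CTNNB1, the gene of beta-catenin, was among those not measured. Of the 8 measured, 3 fell, 1 rose and 4 did not pass, with a median of -0.0792. The share called was 50%, against 35.6% of all genes. It was 5059 of 9475 for all genes when those above the median feature alone were tested, and 0 of these 8 were dim in both lines. FBXW11, a subunit of the ligase that marks beta-catenin for decay, fell by 0.56 (adjusted p = 0.000193 in limma). The kinase GSK3A fell by 0.39 (adjusted p = 0.0112), a call lost without SW480 replicate 3 (adjusted p = 0.0531), and the scaffold AXIN1 rose by 0.38 (adjusted p = 0.00371 in limma). Of 13 listed TCF/LEF factors and partners 5 were measured, and LEF1 was the only TCF/LEF factor among them. Of these 5, 1 fell, 2 rose and 2 did not pass (60% called against 35.6% of all genes), with a median of 0.0359. LEF1 stood at 6.96, 7.01 and 7.12 in SW480 and at 4.80, 4.83 and 5.08 in SW620, a 4.37-fold fall (adjusted p = 2.2e-09 in limma). The coactivators BCL9 and BCL9L rose by 0.69 and 0.30 (adjusted p = 5.6e-05 and 0.0210 in limma). BCL9L did not pass without SW480 replicate 1, SW480 replicate 3, SW620 replicate 1 or SW620 replicate 3 (adjusted p = 0.0624, 0.0598, 0.0814 and 0.0659).

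DKK4, APCDD1 and NOTUM are counted among the targets of beta-catenin, so the other targets were set beside them. Of 20 listed targets and feedback genes 16 were measured. Of these, 8 fell, 6 rose and 2 did not pass (87.5% called against 35.6% of all genes, median difference -0.15). The adhesion receptor CD44 fell 6.17-fold (-2.62, adjusted p = 7.0e-11 in limma), and the transcription factor SOX4 and the ephrin receptor EPHB3 rose 3.76-fold and 2.98-fold (1.91 and 1.57, adjusted p = 2.3e-09 and 7.1e-08 in limma). The SW480 mean of EPHB3, 4.0, lay below the median feature, so its fold rests on a level near the floor. AXIN2 and NKD1, intracellular feedback inhibitors named after their values were seen, went in opposite directions. AXIN2 stood at 9.75, 9.69 and 9.60 in SW480 and at 9.06, 8.95 and 9.01 in SW620, a 1.59-fold fall (adjusted p = 3.1e-05 in limma). NKD1 stood at 10.13, 10.15 and 10.11 in SW480 and at 11.13, 10.98 and 11.08 in SW620, a 1.91-fold rise (adjusted p = 1.2e-06 in limma). The largest difference among the 16 measured targets was that of CD44. The inhibitors were chosen with this contrast known, so their sizes were not ranked against these targets.

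**Figure D5:**
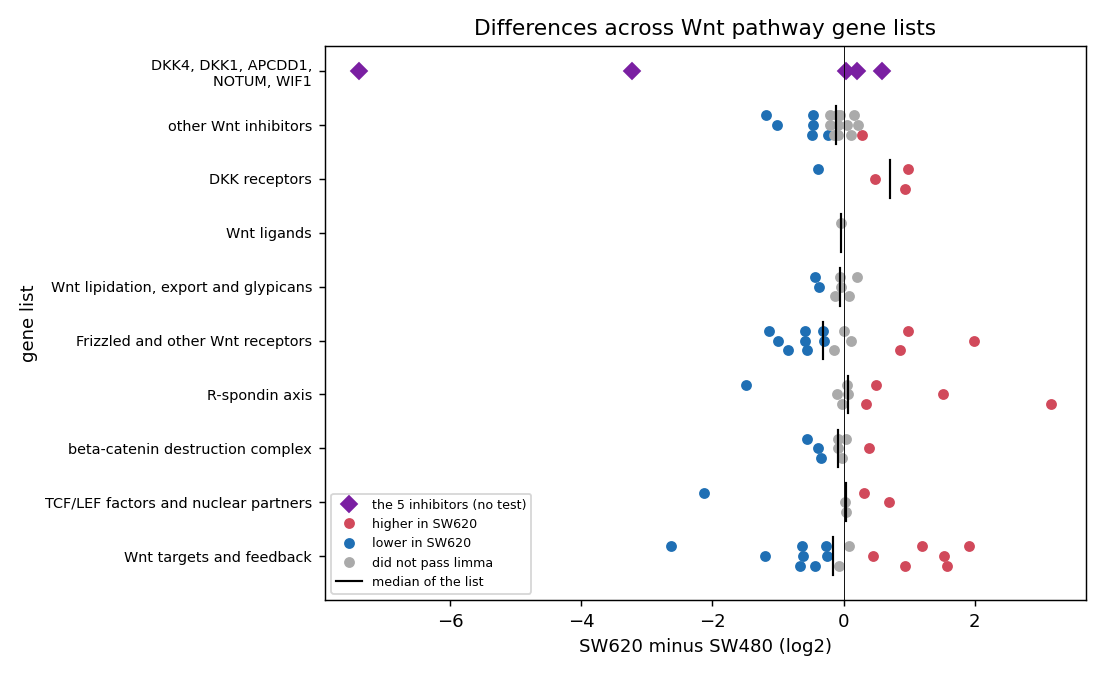
Difference between the lines (SW620 minus SW480, log2) for the 5 inhibitors (purple diamonds, no test) and for the measured genes of 9 Wnt pathway lists, red where limma called a gene higher in SW620, blue where lower and grey where it did not pass; black ticks are list medians. Calls run both ways in most lists, and DKK4 at -7.38 and APCDD1 at -3.22 lie to the left of every other point.

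The cells were checked against markers of their labelled origin and of other cell types. Of 9 measured colon epithelial markers 7 lay above the median feature in both lines, among them EPCAM at 9.71 and 9.61 and KRT18 at 11.55 and 11.67, while KRT20 and CDX1 were dim in both. KRT8, KRT19 and VIL1 rose and CDX2, an intestinal transcription factor, fell by 1.54 in SW620 (adjusted p = 3.0e-08 in limma). The 4 endothelial and 3 leukocyte markers measured lay below the median feature in both lines, and 0 passed limma's test, with 0 at an unadjusted p below 0.05. Fibroblasts are a common source of DKK1 and WIF1 in tissue. Of 10 fibroblast markers 3 were measured, and 2 of these, LUM and THY1, lay above the median feature in both lines. LUM rose by 3.22, from 4.73 ± 0.39 to 7.95 ± 0.12 (SD, n = 3 each, adjusted p = 3.6e-09 in limma). THY1 stood at 4.43 in SW480 and 4.40 in SW620, a difference of -0.0300 (adjusted p = 0.861 in limma). DCN was below the 25th percentile feature in both lines. The summed linear signal of these 3 markers was 49.1 to 64.7 in SW480 and 260.5 to 301.5 in SW620, a rise carried by LUM, and its part in the differences of the inhibitors was not tested.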

How the data were processed

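Total RNA from 6 samples of spheroid culture was labelled with biotin and hybridised to Affymetrix arrays, per the labels' protocols. The deposited table holds log2 values that the authors made by RMA in Partek, per the submitters' processing notes; versions, settings and build: not given in the sources used here. In RMA the background is removed, arrays are given a common distribution and probes are summarised, so folds of dim genes can be understated. Base 2 was assumed for the logarithm because values ran from 1.99 to 13.92. Detection calls were not used here, and the number of arrays limits the precision.

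Of 53616 features, 16098 had exactly 1 gene symbol in the platform annotation, 0 several and 37518 none here. The feature with the highest mean stood for each of 14884 genes. The comparison of the lines used limma 3.58.1 under R 4.3.3 (two-sided, no covariates, 8.39 prior degrees of freedom, Benjamini-Hochberg over all genes). No filter on dim genes was applied.

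The members and lists were chosen with earlier results of these data known. Named genes are the members and up to 3 called genes of each list with the largest difference (or the smallest p where none was called). The 3 nearest profiles of members differing by at least 1 and the nearest measured gene on each side are named too. Cell type markers and the relatives DKK2, DKK3 and DKKL1 are named outside these rules, and others are marked in the text. On simulated data with 14884 genes, 29 of 50 genes changed by 0.5, 47 of 50 changed by 1 and 50 of 50 changed by 2 or by 3 were recovered, with 6 false among 182 calls. The real comparison gave 5293 calls, so these rates need not carry over to it. Alternatives were other scalings, filters, variance models and gene summaries, a replicate block, and leaving out each array.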

Additional observations from a re-analysis of the deposited data

How the results depend on the processing

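The differences of the 5 inhibitors kept their sign under 4 alternatives of scaling and without each array; each gene had a single feature, so averaging features could not change its value. Over the scalings, DKK4 ranged from -7.44 to -7.35, APCDD1 from -3.26 to -3.20, NOTUM from 0.56 to 0.62, DKK1 from 0.20 to 0.24 and WIF1 from 0.0131 to 0.0715. Without 1 array at a time, DKK4 ranged from -7.47 to -7.31, APCDD1 from -3.31 to -3.16, NOTUM from 0.52 to 0.67, DKK1 from 0.13 to 0.34 and WIF1 from 0.00221 to 0.0978. The count of genes that differed was 5293, with 5215 under the replicate block and 4590 to 4984 without 1 array, and that of pathway genes was 50, with 49 under the block and 44 to 47 without 1 array. Arrays with equal replicate numbers did not deviate together from their line means (correlations of -0.0234 to -0.00889 across genes). No pairing by number was thus seen, which does not settle whether the numbers pair the arrays. Centring on the 75th percentile gave 2686 genes higher and 2685 lower, against 2388 and 2905. With genes above the median feature alone, 4 other inhibitors were called in place of 7, since fewer genes were tested. The arrays carry no detection calls here, so levels near the 25th percentile feature, such as that of WIF1, have no lower bound.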
